A study of Mus musculus with 4 samples.

Results

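Ankrd1, Runx1, Gadd45a, Cdkn1a and Csrp3 are genes that skeletal muscle is known to raise when it loses its nerve or is placed under mechanical stress. They were taken by gene symbol from the array's gene table as a group apart from receptor subunits, myosins and the MyoD family, and they are 5 of the 8251 genes that have a probe set with a single symbol. The 5 genes had 6 probe sets, 2 of them for Cdkn1a. Total RNA of mouse skeletal muscle was measured on 4 oligonucleotide arrays, of which 2 are titled J (replicates 1a and 1c) and 2 NJ (replicates 1a and 1d), all at 0 h and all with the code Ctr. The title of the series is that of the neuromuscular junction, where the motor nerve meets the muscle fibre. The codes are not spelled out in the labels, which also give no strain, age or treatment and do not say whether separate animals were used, so the scatter between replicates may be technical.

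When a muscle fibre loses its nerve, genes that are normally held low away from the synapse are switched on along the fibre, and a partly overlapping set answers stretch and overload. Ankrd1 encodes an ankyrin repeat protein (CARP) that binds titin in the sarcomere and can enter the nucleus, and Csrp3 encodes muscle LIM protein (MLP), a partner of Z-disc proteins. Both are known as mechanical stress genes of heart and skeletal muscle. Runx1 is a transcription factor that is nearly silent in innervated muscle and is strongly induced by denervation. Gadd45a, a growth arrest and DNA damage gene, and Cdkn1a, which encodes the cyclin-dependent kinase inhibitor p21, are induced in denervated muscle and in other cells under stress.

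The sequences before the start sites of the 4 genes bright enough to test are shown because they carry the elements through which some of these genes are known to respond. They are the 250 bases upstream of an annotated start in RefSeq (build GRCm38.p6), read 5′ to 3′ on the gene's strand, and all 5 genes matched that table. Capitals mark matches on either strand to motifs that were searched by their letters. A TATA box was searched as TATATA. An E-box, the site of the MyoD family and of other factors, was searched as CANNTG. The M-CAT element, bound by TEAD factors, was searched as GGAATG. The octamer of POU factors was searched as ATTTGCAT. The site of RUNX proteins was searched as ACCACA. A pair of p53 half-site cores, each of them CATG, was searched with 6 letters in between, a spacing chosen after the Cdkn1a sequence had been seen.
Ankrd1, chr19:36119845-36120094, minus strand: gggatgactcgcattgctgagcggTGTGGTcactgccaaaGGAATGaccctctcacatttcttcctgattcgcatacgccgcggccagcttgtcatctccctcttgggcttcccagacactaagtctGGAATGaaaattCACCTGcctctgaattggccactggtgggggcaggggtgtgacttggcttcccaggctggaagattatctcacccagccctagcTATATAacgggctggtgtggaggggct
Csrp3, chr7:48848052-48848301, minus strand: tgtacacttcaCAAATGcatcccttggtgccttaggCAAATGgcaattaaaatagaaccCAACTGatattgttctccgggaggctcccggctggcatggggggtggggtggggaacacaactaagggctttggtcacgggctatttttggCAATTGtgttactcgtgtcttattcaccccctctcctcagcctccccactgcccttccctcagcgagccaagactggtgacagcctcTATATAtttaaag
Cdkn1a, chr17:29090729-29090978, plus strand: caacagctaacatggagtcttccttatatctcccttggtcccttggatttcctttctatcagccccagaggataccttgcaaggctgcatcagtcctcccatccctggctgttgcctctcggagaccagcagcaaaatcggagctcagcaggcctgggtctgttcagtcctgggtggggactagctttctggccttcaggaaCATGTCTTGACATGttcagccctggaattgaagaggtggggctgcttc
Gadd45a, chr6:67037408-67037657, minus strand: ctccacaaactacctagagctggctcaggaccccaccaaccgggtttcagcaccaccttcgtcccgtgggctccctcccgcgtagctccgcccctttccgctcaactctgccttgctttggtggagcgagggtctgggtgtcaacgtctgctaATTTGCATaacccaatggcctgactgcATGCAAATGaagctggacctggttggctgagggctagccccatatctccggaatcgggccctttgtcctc

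Ankrd1 and Csrp3 both had TATATA, which 5.25% of the 32851 upstream windows of the table hold. In Ankrd1 it began at position -27 and in Csrp3 at position -13, counted back from the annotated start. Ankrd1 also had GGAATG at positions -210 and -123 (12.6% of windows hold it) and 1 RUNX site at position -226 (14% of windows). Csrp3 had 4 E-boxes, a motif found in 66.2% of windows. Its window shown belongs to the upstream of 2 annotated starts, and that of the downstream start had 4 E-boxes and no TATATA. Ankrd1 had 1 E-box, at position -111. The Cdkn1a window shown belongs to the upstream of its 2 annotated starts and held the pair of p53 cores at position -48, which 0.49% of windows hold. The window of the downstream start did not hold it. Gadd45a had 2 octamers, at positions -97 and -70 (1.6% of windows), the second of which overlaps an E-box at position -67, and a CCAAT box (CCAAT, 33.8% of windows, not in capitals) at position -86. Ankrd1 too had a CCAAT box, at position -98. These matches describe letters only.

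Signals are the deposited intensities. They were quantile normalised as log2(signal + 32), which understates the change of dim genes, and each difference is J minus NJ on that scale, with its standard error (SE) from limma and 2 arrays in each group. No probe set on the array passed limma's test at a Benjamini-Hochberg adjusted p under 0.05 (0% of 9316 tested), and 117 (1.26%) were higher and 82 (0.880%) lower in J at an unadjusted p under 0.05. With 2 arrays a group, the smallest two-sided p of an exact permutation test is 0.333. As deposited, array J 1c stood apart in muscle transcripts. The summed signals of 19 fast fibre genes were 1506300 on J 1a and 313538 on J 1c, against 1279750 on NJ 1a and 953057 on NJ 1d. RNA of the labelled tissue was thus abundant on all 4. Such sums weigh the brightest genes most, and quantile normalisation removed part of the gap. J 1c minus NJ 1d was -1.61 for Tnnt3 as deposited and 0 after normalisation, but -2.56 and -2.21 for Actn3. The normalised median of the 18 tested was -0.13. The 1a columns of the table are written with full digits and those of J 1c and NJ 1d with 1 decimal, a number format that cannot be told apart from the replicate label. Differences are therefore also given within each format, as the 1a pair (J 1a minus NJ 1a) and the 1c/1d pair (J 1c minus NJ 1d). In such bulk samples fewer cells of a type and less RNA per cell cannot be told apart.

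Ankrd1, the titin-binding stress gene, had signals of 1350.9 on J 1a and 3017.5 on J 1c, against 195.2 on NJ 1a and 1298.2 on NJ 1d. It was low on a single array, NJ 1a, and the dimmer J array was close to the brighter NJ array. On the log2 scale it averaged 10.96 ± 0.77 in J and 9.04 ± 1.96 in NJ (SD, n = 2 each), a difference of 1.92 ± 0.83 (SE) or 3.78-fold. Only 0.730% of the probe sets tested were higher in J by as much or more, and Ankrd1 ranked 177th of 9316 by p. It did not pass (limma, unadjusted p = 0.046, adjusted p = 0.999). The difference was 2.76 in the 1a pair and 1.08 in the 1c/1d pair. Without NJ 1a it was 0.54 and without NJ 1d it was 3.30. With a term for the number format limma gave an adjusted p of 0.148.

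Whether the groups of Ankrd1 overlap depended on the scale. As deposited, the lower J value lay above the higher NJ value by 0.056 on the log2 scale, and 14.3% of probe sets tested were likewise higher in J without overlap on that scale. After quantile normalisation the lower J value minus the higher NJ value was -0.0096, and with each array centred on its median it was -0.33, so the groups overlapped on both. The 2 NJ arrays differed from each other by 2.77, a gap that 1.37% of probe sets tested reached. The spread within NJ was thus larger than the difference between the groups.

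Csrp3, muscle LIM protein, had signals of 3638.1 on J 1a and 1021.8 on J 1c, against 2780.9 on NJ 1a and 207.7 on NJ 1d. Both arrays titled 1a were high and the other 2 low, so the values separated by number format and overlapped between J and NJ. Csrp3 averaged 10.98 ± 1.33 in J and 9.82 ± 2.39 in NJ (SD, n = 2 each), a difference of 1.16 ± 0.99 (SE) that did not pass (limma, adjusted p = 0.999). The mean of the 1a arrays exceeded that of the other 2 by 2.63, and the lower 1a value lay 1.47 above the higher of the others. The J value was higher within both formats, by 0.42 in the 1a pair and by 1.91 in the 1c/1d pair. The 2 J arrays differed by 1.88, a gap that 12.0% of the probe sets tested reached, and the 2 NJ arrays by 3.38, which 0.247% reached. Without NJ 1d the difference was -0.53 and without NJ 1a it was 2.85, the first of which sets both J arrays against NJ 1a alone. With a term for the number format the difference of 1.16 had an SE of 0.45 (limma, unadjusted p = 0.012, adjusted p = 0.611).

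**Figure D1:**
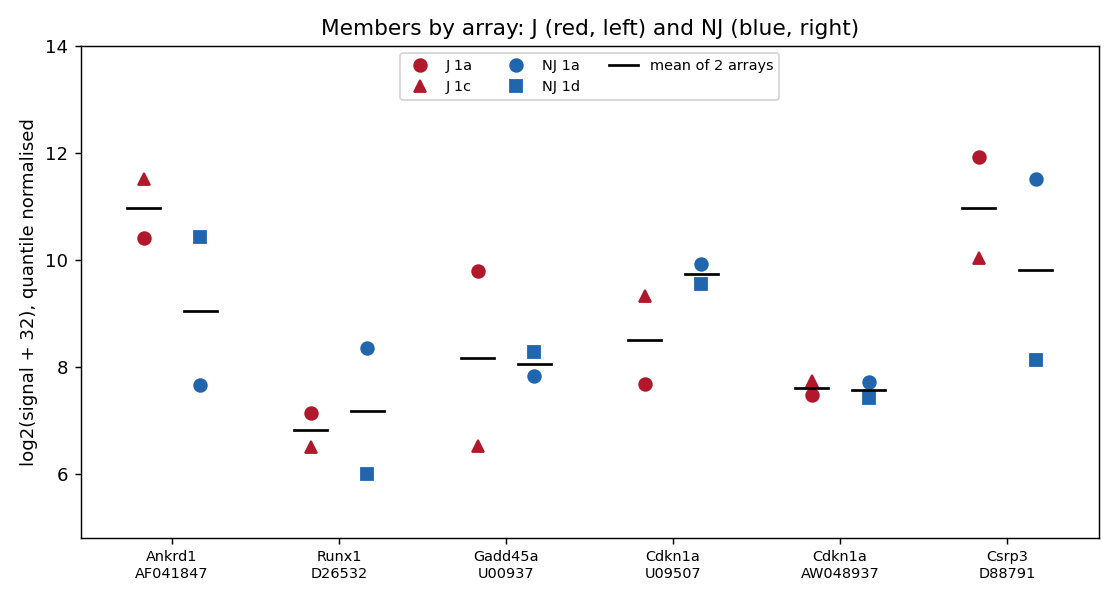
Signal of each probe set of the 5 genes on each array, as log2(signal + 32) after quantile normalisation, with J in red on the left, NJ in blue on the right and a black line at the mean of 2 arrays. Ankrd1 is low on NJ 1a, Csrp3 and Runx1 are lowest on NJ 1d, Gadd45a spans 6.52 to 9.79 within J, and at the Cdkn1a probe set U09507 both J values lie below both NJ values.

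Cdkn1a, the p21 gene, was read by 2 probe sets that differed. The brighter, named here by its accession U09507, had signals of 202.6 on J 1a and 591.5 on J 1c, against 943.4 on NJ 1a and 670.9 on NJ 1d. Both J values lay below both NJ values, as for 12.8% of the probe sets tested, and J 1a was the low array. The mean was 8.50 ± 1.17 in J and 9.73 ± 0.26 in NJ (SD, n = 2 each), a difference of -1.23 ± 0.74 (SE) that did not pass (limma, unadjusted p = 0.127, adjusted p = 0.999). It was -2.24 in the 1a pair and -0.22 in the 1c/1d pair, and -0.40 without J 1a. It was negative on the deposited and the median-centred scale too, with no overlap on either (12.0% and 13.0% of probe sets tested were lower without overlap there).

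The other Cdkn1a probe set, AW048937, had signals of 170.5 on J 1a and 161.6 on J 1c, against 204.6 on NJ 1a and 114.1 on NJ 1d. Its groups overlapped and its difference was 0.04 ± 0.76 (limma, adjusted p = 0.999), with -0.25 in the 1a pair and 0.33 in the 1c/1d pair. J 1a was not low here, so the lower J signal of Cdkn1a rests on 1 of its 2 probe sets.

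Gadd45a, the growth arrest gene, had signals of 879.0 on J 1a and 51.2 on J 1c, against 223.8 on NJ 1a and 232.6 on NJ 1d. The J arrays stood on either side of the NJ arrays, which were nearly equal. Gadd45a averaged 8.16 ± 2.31 in J and 8.05 ± 0.31 in NJ (SD, n = 2 each), a difference of 0.11 ± 1.08 (SE; limma, adjusted p = 0.999). It was 1.96 in the 1a pair and -1.75 in the 1c/1d pair, and ranged from -1.53 without J 1a to 1.74 without J 1c. The gap of 3.27 between the 2 J arrays was reached by 1.12% of the probe sets tested.

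Runx1, the denervation-induced transcription factor, was the dimmest of the 5 genes relative to the filter and was not tested. It had signals of 131.0 on J 1a and 50.1 on J 1c, against 330.9 on NJ 1a and 21.2 on NJ 1d. The 2 NJ arrays held both the highest and the lowest value. Its mean over the 4 arrays fell below the bound of 7.22 on the log2 scale that kept the brighter 75% of probe sets, with 6.81 ± 0.45 in J and 7.17 ± 1.67 in NJ (SD, n = 2 each). The 2 J arrays differed by 0.63, a gap that 55.1% of the probe sets tested reached, and the 2 NJ arrays by 2.37, which 3.35% reached. The difference was -0.36, with -1.22 in the 1a pair and 0.51 in the 1c/1d pair. Both 1a values lay above both others, by 0.63 at the least, as in Csrp3. With no filter limma gave an adjusted p of 0.9996 and an SE of 0.87.

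**Figure D2:**
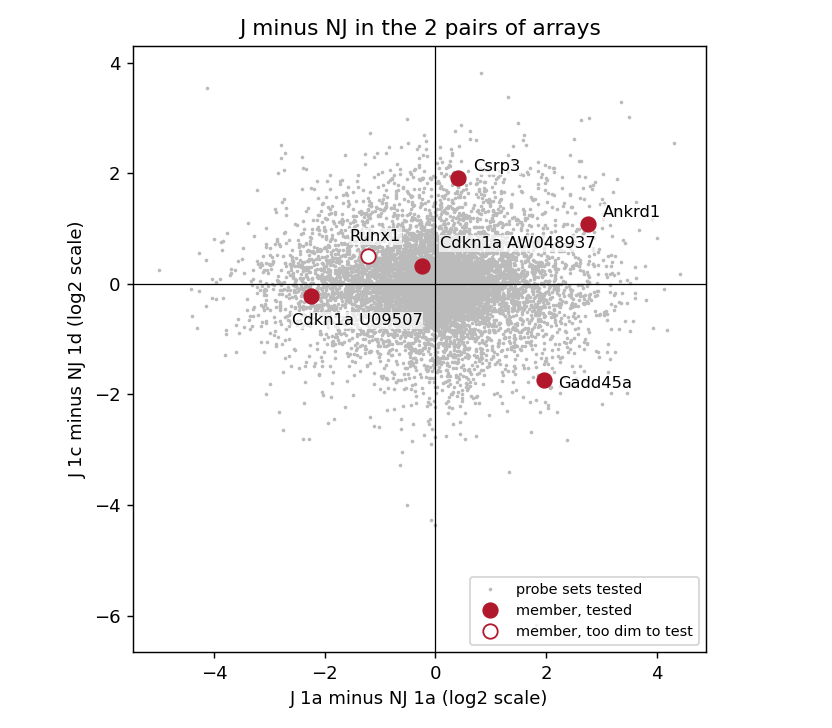
Difference of J minus NJ in the 1a pair (horizontal) against that in the 1c/1d pair (vertical), both on the log2 scale, for all probe sets tested (grey) and the 6 probe sets of the 5 genes (red, open where too dim to test). Ankrd1 and Csrp3 lie in the upper right, where J is higher in both pairs, the Cdkn1a probe set U09507 lies just below the horizontal axis on the left, and Gadd45a lies far to the lower right with opposite signs.

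Seen over both number formats, J was higher in each pair for Ankrd1 and Csrp3, lower in each for the Cdkn1a probe set U09507, and of opposite sign for Gadd45a, Runx1 and the other Cdkn1a probe set. Of the probe sets tested, 49.3% had the same sign in both pairs (2325 higher and 2272 lower in J). Of the 5 tested probe sets of these genes 3 had the same sign in both, 2 higher and 1 lower, a share near that of the array. With a term for the number format limma called 0.0859% of probe sets at an adjusted p under 0.05, and none of these 5 was among them.

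**Figure D3:**
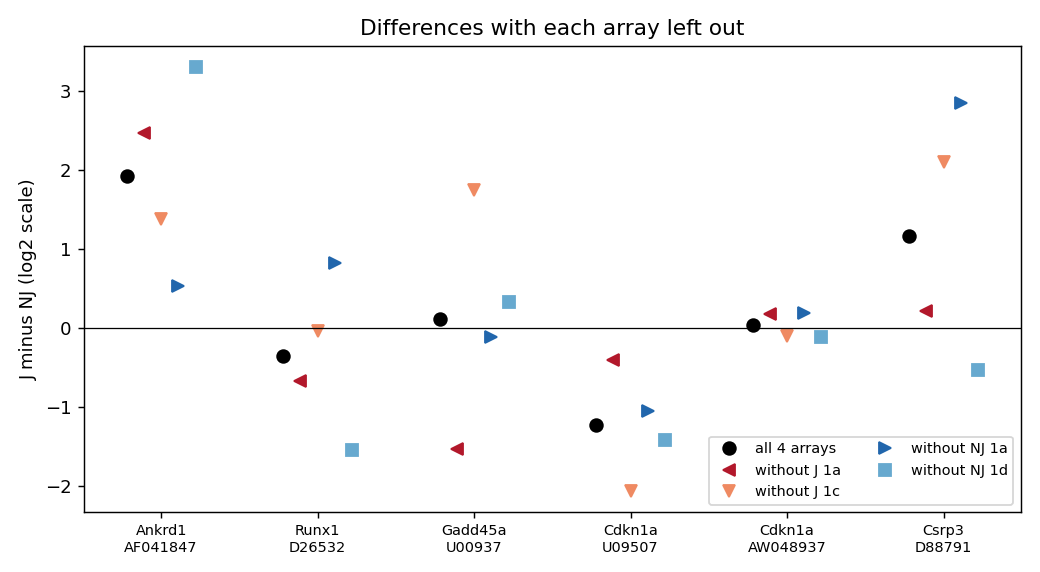
Difference of J minus NJ on the log2 scale for each probe set of the 5 genes with all 4 arrays (black) and with each array left out. Ankrd1 stays above 0 (0.54 to 3.30) and the Cdkn1a probe set U09507 below 0 (-2.06 to -0.40), while Runx1, Gadd45a, Csrp3 and the other Cdkn1a probe set lie on both sides.

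Of 11 related genes of the same families 8 had a probe set, all of them bright enough to test. Of these, 3 were higher in J and 5 lower, and the median difference was -0.24 against -0.012 over all 6773 genes tested, where 3316 were higher and 3457 lower. None passed the test, and 1 was lower in J at an unadjusted p under 0.05 (0.880% of all probe sets tested were). That gene was Gadd45g, which encodes another growth arrest protein of the GADD45 family, with signals of 1644.1 on J 1a and 963.9 on J 1c, against 3865.6 on NJ 1a and 2393.4 on NJ 1d. Both J values were below both NJ values, as for 12.8% of all probe sets tested. Its difference was -1.26 ± 0.46 (limma, unadjusted p = 0.022, adjusted p = 0.999), and it was nearly the same in both pairs, at -1.27 in the 1a pair and -1.26 in the 1c/1d pair. Gadd45a, in contrast, had opposite signs in the pairs, although no test of the difference between the 2 genes was made. Gadd45b, the third gene of that family, differed by 0.016 ± 0.52 at its brighter probe set, by -0.034 there when arrays were centred on their medians, and by -0.42 at its other one.

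Among the relatives of Cdkn1a, Cdkn1c, which encodes the inhibitor p57, had signals of 1940.5 on J 1a and 1600.2 on J 1c, against 2919.0 on NJ 1a and 2177.3 on NJ 1d. Its J values were also below its NJ values (12.8% of all probe sets tested). Its difference was -0.54 ± 0.40 (limma, adjusted p = 0.999), with -0.60 and -0.47 in the pairs. Cdkn1b, the p27 gene, differed by 0.19 ± 0.75 at its brighter probe set.

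Ankrd2, a titin-binding relative of Ankrd1 that is also known to answer stretch and denervation, had signals of 3013.2 on J 1a and 635.0 on J 1c, against 3150.1 on NJ 1a and 1118.0 on NJ 1d. Both 1a arrays were high, as for Csrp3, and the difference was -0.42 ± 0.73. Csrp1 and Csrp2, LIM proteins found mainly outside striated muscle, differed by -0.35 ± 0.77 and -0.14 ± 0.82. That value of Csrp1 is from its brighter probe set, with -0.90 in the 1a pair and 0.20 in the 1c/1d pair. The other Csrp1 probe set, too dim to test, differed by 0.28. Cbfb, the partner that RUNX proteins need to bind DNA firmly, differed by 0.50 ± 0.56, by 0.0021 as deposited and by -0.059 after centring.

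**Figure D4:**
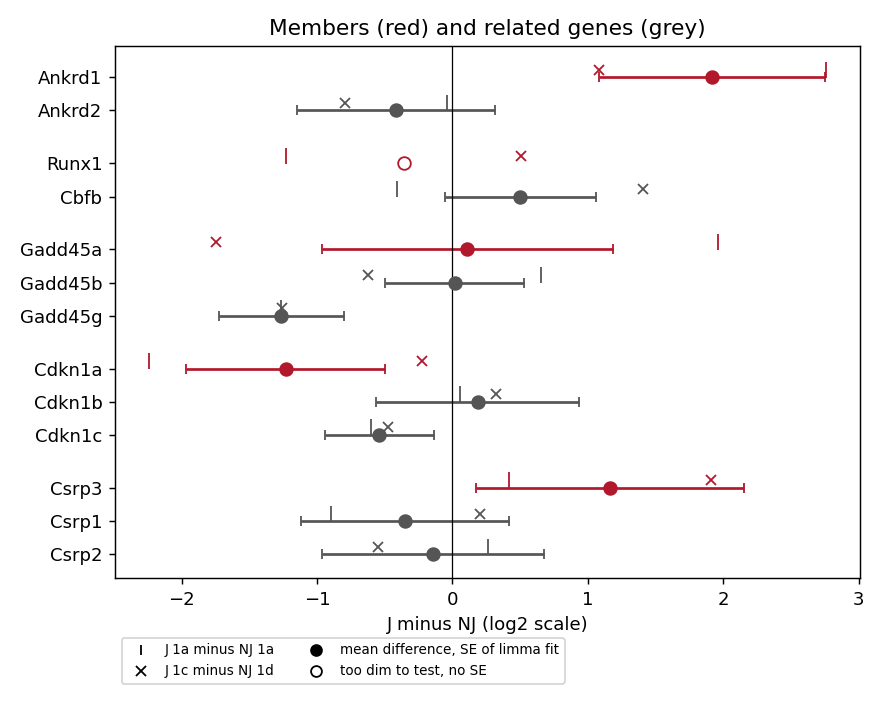
Differences of J minus NJ on the log2 scale (points, with the SE of the limma fit as bars) for the 5 genes in red and 8 relatives in grey, each at its brightest probe set, with the differences within each pair of arrays as ticks and crosses. The marks of Gadd45g coincide near -1.26, those of Gadd45a lie at 1.96 and -1.75, and Ankrd1 has the largest positive difference of the genes drawn.

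Other genes of the denervation response, apart from the 5 and from receptor subunits, myosins and the MyoD family, were also read. Of 29 such genes 17 had a probe set and 15 were tested, of which 10 were higher in J and 5 lower, none past the test and none at an unadjusted p under 0.05. Their median was 0.11, against -0.012 over all genes, and it was -0.023 with median centring. These genes were not split by the direction in which denervation moves them, so the counts and median need not share a direction. The 4 with the smallest p were all higher in J on average. Ampd3, an AMP deaminase, differed by 1.19 ± 1.02 and had the array pattern of Csrp3, with signals of 628.6 on J 1a and 191.2 on J 1c, against 430.3 on NJ 1a and 24.4 on NJ 1d. Ncam1, an adhesion molecule that spreads over denervated fibres, differed by 0.81 ± 0.71. Mt2, a metallothionein, differed by 0.43 ± 0.40 and Atf4, a transcription factor of the amino acid and stress response that is known to induce Gadd45a, by 0.39 ± 0.40.

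The p53 and growth arrest list was even, with 12 of 23 tested genes higher in J and 11 lower, at a median of 0.0068, which was -0.034 with median centring. None passed, and besides Gadd45g none had an unadjusted p under 0.05. The list also holds genes that drive the cell cycle, among them a cyclin-dependent kinase, so its counts and median have no common direction. Apaf1, which drives caspase activation, differed by 1.47 ± 0.88, but by 2.93 in the 1a pair and 0.01 in the 1c/1d pair. Ppp1r15a, also called GADD34, differed by -0.98 ± 0.67 and Zmat3, a p53 target, by 0.96 ± 0.70. Like the Cdkn1a probe set U09507, Ppp1r15a was lowest on J 1a, at 319.1, against 1259.3 on NJ 1a. Unlike U09507 it was higher in J in the 1c/1d pair, by 0.12 (847.2 on J 1c and 738.3 on NJ 1d). Zmat3 differed by 1.97 in the 1a pair and by -0.05 in the 1c/1d pair.

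Among genes of the Z-disc and of titin-based mechanosensing, the compartment of Ankrd1 and Csrp3, 9 of 21 tested were higher in J and 12 lower, at a median of -0.15 that was 0.18 without J 1c. None passed, and 1 was lower in J at an unadjusted p under 0.05 (0.880% of all probe sets tested were). It was Zyx, the zyxin gene of stretch-sensitive adhesions, with signals of 89.2 on J 1a and 82.8 on J 1c, against 677.3 on NJ 1a and 183.6 on NJ 1d. Its difference was -1.87 ± 0.83 (limma, unadjusted p = 0.0496, adjusted p = 0.999), with -2.73 in the 1a pair and -1.02 in the 1c/1d pair. Vcl, vinculin, differed by -0.82 ± 0.50, with -1.77 in the 1a pair and 0.13 in the 1c/1d pair. Fhl1, a LIM protein of the sarcomere, differed by -0.70 ± 0.42, with both J values below both NJ values (12.8% of all probe sets tested). Actn3, a fast-fibre alpha-actinin, was low on J 1c alone and had a difference of -1.18 ± 0.69. The fast fibre list as a whole had 7 of 18 tested genes higher and 11 lower, with a median of -0.12 that was -0.59 as deposited and -0.65 after centring. On J 1c, where the summed fast fibre signal as deposited was lowest, Ankrd1 was at its highest and Csrp3 was below both 1a arrays.

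Markers of other cells that the samples could hold were read beside these values. Fibroblast genes were higher in J for 14 of 18 tested, with a median of 0.65, and 9 had both J values above both NJ values (13.6% of all probe sets tested did). Their summed deposited signals were 122915 on J 1a and 52866 on J 1c, against 69863 on NJ 1a and 59476 on NJ 1d, so these sums overlapped. The sums rest largely on Dcn, with 82874.1 on J 1a and 25303.9 on J 1c, against 42424.6 on NJ 1a and 36133.3 on NJ 1d. After quantile normalisation Dcn did not overlap, at 15.75 and 15.72 in J against 15.18 and 14.96 in NJ. Postn, periostin, differed by 3.43 ± 0.81 and Col6a1, a collagen VI chain, by 1.03 ± 0.39 (limma, adjusted p = 0.999 for both). Serpinf1 went the other way without overlap, by -1.33 ± 0.57 (limma, unadjusted p = 0.044, adjusted p = 0.999). The part of fibroblast RNA in the higher J signal of Ankrd1 was not tested.

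Leukocytes express Runx1 and Gadd45a, and of the immune and blood markers 12 of 20 tested were higher and 8 lower in J, with summed signals of 13377 on J 1a and 12233 on J 1c, against 13063 on NJ 1a and 11459 on NJ 1d. The groups did not overlap for 8 of the 20, 5 of them higher and 3 lower in J (13.6% and 12.8% of all probe sets tested). Cd48 and Fcer1g, the 2 markers with the smallest p, differed by -2.60 ± 0.76 and -2.55 ± 0.82. S100a8, a calprotectin subunit of neutrophils, was higher without overlap, with signals of 404.8 on J 1a and 262.8 on J 1c, against 67.7 on NJ 1a and 33.4 on NJ 1d. It differed by 2.09 ± 0.75 (limma, unadjusted p = 0.020, adjusted p = 0.999). S100a9, the other calprotectin subunit, did not follow it and was too dim to test. Its signals were 35.3 on J 1a and 43.8 on J 1c, against 39.4 on NJ 1a and 15.5 on NJ 1d. Ptprc, the defining leukocyte antigen and too dim to test, had signals of 25.5 on J 1a and 82.5 on J 1c, against 98.1 on NJ 1a and 149.1 on NJ 1d. The part of leukocyte RNA in the values of Runx1 and Gadd45a was not tested.

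Slow fibre and cardiac genes, among which Ankrd1 and Csrp3 are often counted, had 7 of 13 tested higher in J and 6 lower, at a median of 0.019 that was -0.012 with median centring. Their summed signals were 68397 on J 1a and 30852 on J 1c, against 69887 on NJ 1a and 58247 on NJ 1d. Actc1, cardiac actin, differed by -0.57 ± 0.38, Fabp3, a fatty acid binding protein, by -0.52 ± 0.39, Myh7, the slow myosin heavy chain, by -1.13 ± 0.95 and Nppb, a natriuretic peptide, by -0.96 ± 0.86. The groups did not overlap for 4 of the 13, 2 of them higher and 2 lower in J (13.6% and 12.8% of all probe sets tested). The 2 higher were Casq2 (0.31 ± 0.55) and Tpm3 (0.16 ± 0.40), and the 2 lower were Actc1 and Fabp3.

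Satellite cell and myoblast markers had 4 of 7 tested higher and 3 lower. Cdh15, the M-cadherin of these cells, differed by -1.69 ± 0.78 and Sdc3 by -0.97 ± 0.82. Both were lower without overlap, as were 12.8% of all probe sets tested. Itga7 was higher without overlap (13.6% of all probe sets tested were), by 0.41 ± 0.42. Smooth muscle and pericyte markers had 8 of 10 higher and 2 lower, with a median of 0.41. The 2 lower were Mcam, at -0.88 ± 0.65, and Notch3, at -0.98 ± 0.75. They differed by -1.91 and -1.79 in the 1a pair, but by 0.15 and -0.17 in the 1c/1d pair. Cnn1 (0.80 ± 0.77) and Mylk (0.42 ± 0.38) were higher without overlap (13.6% of all probe sets tested were). No marker of this list was lower without overlap. Endothelial markers had 3 of 9 higher and 6 lower, with Vwf at 1.87 ± 0.72 and Kdr at -1.40 ± 0.96. Schwann cell markers had 3 of 9 higher and 6 lower, with Apod at 2.09 ± 0.84 and S100b at -1.18 ± 0.81, and adipocyte markers 1 of 6 tested higher and 5 lower, with Adipoq at 1.90 ± 0.59 and Lpl at -0.96 ± 0.43. No single marker was listed at 0 on any array.

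The genes whose profile over the 4 arrays lay nearest to each of the 5 were found among 6772 tested genes by the root mean square distance between mean-centred log2 values. With 4 points and so many candidates some near matches are to be found for most profiles, so these are given as a description. Nearest to Ankrd1 were Fgf6, a growth factor of skeletal muscle (distance 0.22), Dennd4c (0.24) and the mitotic kinase gene Aurka (0.28). Fgf6 had signals of 961.8 on J 1a and 1367.7 on J 1c, against 87.2 on NJ 1a and 669.2 on NJ 1d, so it too was low on NJ 1a. Its J values lay above its NJ values, and it differed by 2.03 ± 0.90.

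Nearest to Csrp3 were Wipi2, which acts in autophagy (distance 0.03), Ddit4, a stress-induced inhibitor of the mTOR pathway (0.27), and Ampd3 (0.32). Ddit4 had signals of 1193.7 on J 1a and 141.2 on J 1c, against 662.0 on NJ 1a and 22.6 on NJ 1d. The 1a arrays were again high and NJ 1d lowest. Ddit4 is in the p53 and growth arrest list and Ampd3 in the denervation list.

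Nearest to Gadd45a were the endothelial tight junction gene Cldn5 (distance 0.13), Fam207a (0.16) and the interferon-induced Ifi27 (0.21). Cldn5 had signals of 1302.5 on J 1a and 118.3 on J 1c, against 416.0 on NJ 1a and 393.2 on NJ 1d, with the same wide gap between the J arrays. Nearest to the Cdkn1a probe set U09507 were Bmyc, a relative of the Myc gene (0.02), the transcript 1110051M20Rik (0.03) and Alg5, an enzyme of glycan assembly (0.04), each of them lowest on J 1a.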

How the data were processed

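Transcripts were measured on 4 arrays of mouse skeletal muscle RNA, grouped as J and NJ by their titles. The authors deposited a linear intensity for each probe set on each array. The software behind these values is not given in the sources used here. Means of the deposited columns, trimmed by 2% at each end, lie between 800.5 and 800.6, so each array had been scaled to a common level. No counts are involved, and the number of arrays limits the precision.

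Of 12488 probe sets 66 were controls. Of the other 12422, 10833 had 1 gene symbol in the platform's gene table, 396 had several and 1193 none. Coordinates belong to the RefSeq promoter table, since the array's build is unknown. Intensities were taken as log2(value + 32). Column medians ranged from 8.29 to 8.67, over the limit of 0.1, so arrays were quantile normalised with controls in, and controls were then left out. Probe sets above the 25th percentile of the mean over all arrays were kept (9316). The comparison used limma 3.58.1 under R 4.3.3 (lmFit, then trended eBayes, 2 residual degrees of freedom) and Benjamini-Hochberg adjustment over all 9316. The script was tested on simulated data. limma draws variances toward a trend, so SEs are not the spread of 2 arrays alone.

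Genes and lists were chosen with earlier results of these data known, so lists have counts and medians and no test. Named are the 5 genes at every probe set, all measured relatives, the 4 genes of each other list with the smallest p (2 for cell types) and the 3 nearest profiles. A gene's brightest probe set stands for it in lists. Ptprc, S100a8, S100a9, Serpinf1, Dcn, Tnnt3, Casq2, Tpm3, Itga7, Cnn1 and Mylk were named beyond that rule, chosen after their values were seen. Plots used matplotlib 3.10.9 (Python 3.11.15).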

Additional observations from a re-analysis of the deposited data

How the results depend on the processing

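No pairing of all 4 arrays by replicate label was possible because the groups share only the label 1a. The number-format term, which sets J 1a beside NJ 1a and J 1c beside NJ 1d, is a block by format. Alternatives were the deposited scale, median centring, pseudocounts of 1 and 100, filtering at the median or not at all, untrended eBayes, a number-format term, the mean of a gene's probe sets in lists, and each array left out. Background correction could not be varied on processed intensities. Ankrd1 stayed positive (0.54 to 3.30 with each array left out, 1.73 to 2.03 otherwise) and the Cdkn1a probe set U09507 negative (-2.06 to -0.40, and -1.33 to -1.06). Since the groups of U09507 do not overlap, leaving out an array could not change its sign. For Ankrd1, with an overlap of only -0.0096, it hardly could. Filter, trend and number-format settings leave the difference itself unchanged. With all 4 arrays no probe set of the 5 genes passed under any alternative. The lowest limma adjusted p was 0.148. Gadd45a turned to -0.036 with a pseudocount of 1, and to -1.53 without J 1a and -0.11 without NJ 1a (up to 1.74 without J 1c). Csrp3 turned to -0.53 without NJ 1d (up to 2.85), and the Cdkn1a probe set AW048937 to -0.10 without J 1c and -0.11 without NJ 1d (up to 0.19). Runx1, untested, lay between -1.54 and 0.82 in these subsets. Gadd45a and AW048937 were too dim for the filter at the median. The cause of these changes was not tested.

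The denervation list's median was 0.039 as deposited, -0.023 after centring, 0.0023 with the mean of all probe sets and 0.027 without a filter (0.098 to 0.33 with each array left out). The fast fibre median was -0.59 as deposited and -0.65 after centring (-0.31 to -0.012 in the subsets). With the filter at the median the relatives' median was -0.38 (-0.38 to -0.014 with each array left out), and without a filter the slow fibre and cardiac median was -0.32 (-0.19 to 0.11). With each array left out, the Z-disc median ranged from -0.22 to 0.18 and that of the p53 list from -0.084 to 0.039. The Z-disc median was -0.26 with median centring. Over all probe sets, limma called 4 higher and 4 lower with the number-format term at an adjusted p under 0.05, and 0 to 4 lower with each array left out (4 without J 1a). At an unadjusted p under 0.05 there were 56 higher and 46 lower with the filter at the median, 259 and 296 with the term, and 128 lower with no filter. With each array left out they ranged from 75 (without NJ 1a) to 303 (without J 1c) higher and from 33 (without NJ 1a) to 579 (without J 1c) lower.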
